A study of Mus musculus with 8 samples.

Results

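The genes described here mark the inhibitory interneurons of the cortex and the peptides these cells release. Of 30 listed genes, 24 had at least 1 probe set that named that gene alone, out of 12921 genes so named on the arrays, and together they had 384 such probe sets. A probe set is a group of short probes that reads a stretch of a transcript, and an exon array carries several along each gene. Pvalb, Crh, Maf, Prox1, Npas1 and Htr3a had none and were not analysed here. Cortical RNA of CD1 mice, taken at postnatal day 10, was compared between 4 wild type and 4 Nova2 knockout (Nova2 KO) samples, with 1 array each. The Nova2 protein binds RNA in neurons and controls splicing. The labels name no other allele or treatment, and the sources used here do not give how Nova2 was deleted or in which cells.

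Interneurons of the cortex release GABA and are born in the ventral forebrain, from where they migrate into the cortex. Dlx transcription factors act early in all of them. Lhx6, Sox6 and Satb1 act in the cells of the medial ganglionic eminence, which become the somatostatin and parvalbumin classes, and Nr2f2 and Prox1 in many cells of the caudal ganglionic eminence, which include the Vip class. The adult classes are told apart by peptides such as somatostatin, neuropeptide Y and Vip, and by calcium binding proteins. Many of the members are also expressed in striatum and other brain regions.

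For each gene and array, a gene value was taken as the median log2 signal of its probe sets that passed a filter on dim signal. Of the 384 member probe sets, 361 passed, and 23 members had the 3 or more that a gene value required, with 4 to 37 probe sets each. Cort, with 2 kept probe sets, is given by probe set. Array medians ran from 7.02 to 7.37 log2, lowest on wild type 4 and Nova2 KO 4. The cortical excitatory neuron markers were present: Slc17a7, the vesicular glutamate transporter, was at 12.2 log2 and Fezf2 at 10.1 log2 in wild type, against a filter value of 5.86 log2. As a check of the labels, the Nova2 probe set with the lowest p of 16, 5294108, lay at 8.53 to 8.87 log2 in wild type and at 6.28 to 7.26 log2 in Nova2 KO. It was chosen by that p, and its limma adjusted p was 0.000188 over the 16 Nova2 probe sets and 0.0786 over all kept probe sets. Nova2 probe sets 4414499 (0.70 log2) and 4355944 (0.40 log2) were higher in Nova2 KO with groups that did not overlap, and the Nova2 gene value differed by -0.016 log2 (SE 0.11, limma adjusted p = 0.975). Its paralogue Nova1 was at 0.38 log2 (SE 0.11, limma adjusted p = 0.251). A probe set outside the deleted part would check nothing, but which Nova2 probe sets read that part was not analysed here. The higher signal of 4414499 and 4355944 is thus left unexplained, and the check rests on 5294108. In whole cortex, fewer cells of a type and less RNA per cell cannot be told apart.

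No member passed the threshold, an adjusted p of 0.05 over all 11992 genes (limma), where 25 genes or 0.208% passed. The lowest adjusted p among the members was 0.205, for Nxph1. At an unadjusted p under 0.05, 5 members were higher in Nova2 KO (Tac1, Nxph1, Dlx1, Npy and Erbb4), against 7.86% of all genes. On the same criterion 1 member, Penk, was lower, against 3.72% of all genes. In all, 18 of the 23 members had a higher mean in Nova2 KO (78.3%, against 55.4% of all genes), and their median difference was 0.11 log2, against 0.022 log2 over all genes. Leaving out either Nova2 KO 2 or Nova2 KO 4 moved the member median to 0.17 log2, and leaving out Nova2 KO 3 moved it to 0.077 log2. Standard errors of the members ran from 0.094 to 0.16 log2 (n = 4 per group).

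**Figure D1:**
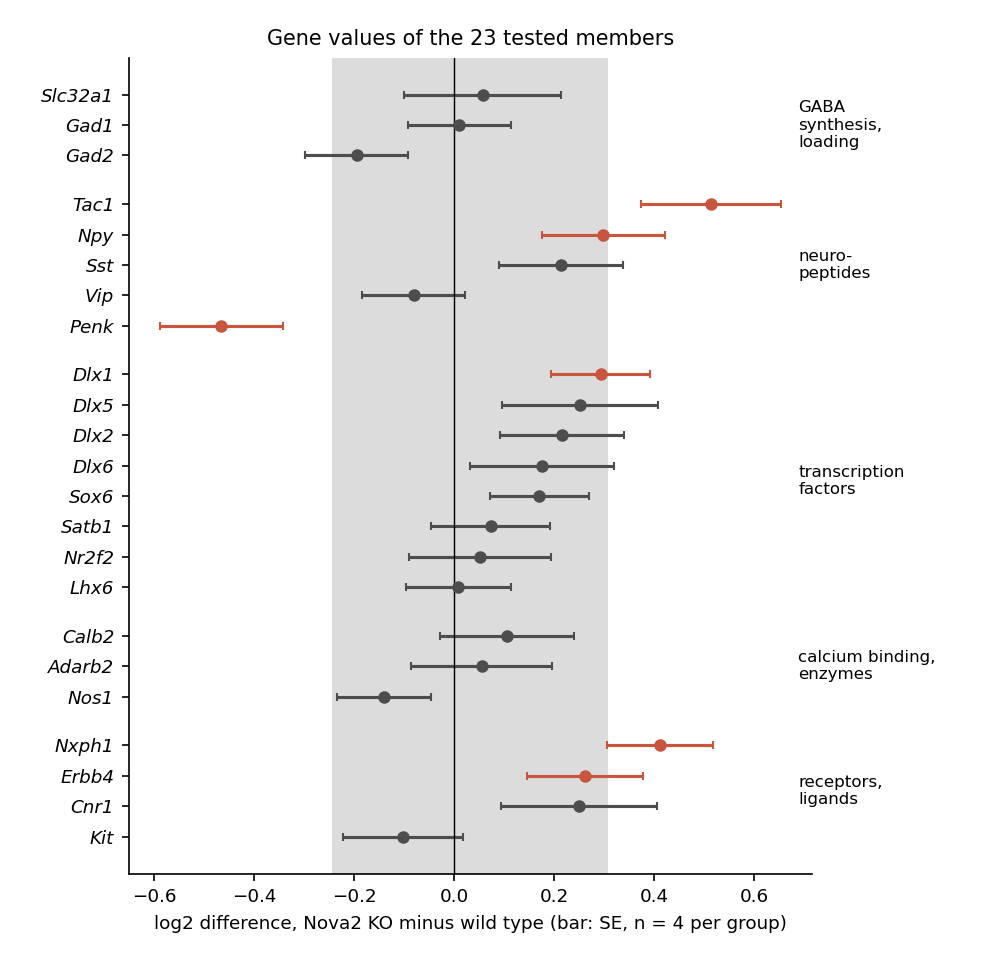
Difference of the gene value between Nova2 KO and wild type for the 23 tested members, grouped by role, with log2 units on the x axis and standard errors as bars (n = 4 per group). The grey band spans the 5th to 95th percentile of all 11992 genes (-0.24 to 0.30 log2), red points have an unadjusted limma p under 0.05, and Tac1 (0.51) and Nxph1 (0.41) lie to the right of the band while Penk (-0.47) lies to its left.

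The promoters of 5 peptide genes are shown first, because the peptide genes differed among themselves more than any other role. Each line gives the 150 bases before the annotated RefSeq start (GRCm38.p6), 5′ to 3′ on the strand of the gene. Capitals mark TGACG on either strand, the core of the cyclic AMP response element through which CREB acts, and the palindrome TGACGTCA, which holds TGACG on both strands. The window of Sst is chr16:23890845-23890994 (minus strand), that of Tac1 chr6:7554911-7555060 (plus), that of Vip chr10:5639068-5639217 (plus), that of Cort chr4:149126764-149126913 (minus) and that of Npy chr6:49822560-49822709 (plus).
Sst: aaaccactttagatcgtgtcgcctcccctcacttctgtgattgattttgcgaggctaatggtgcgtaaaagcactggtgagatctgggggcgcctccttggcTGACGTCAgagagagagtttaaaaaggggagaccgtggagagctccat
Tac1: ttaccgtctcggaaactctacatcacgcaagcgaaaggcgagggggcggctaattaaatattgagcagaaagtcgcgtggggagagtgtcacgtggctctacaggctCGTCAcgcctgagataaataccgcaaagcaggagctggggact
Vip: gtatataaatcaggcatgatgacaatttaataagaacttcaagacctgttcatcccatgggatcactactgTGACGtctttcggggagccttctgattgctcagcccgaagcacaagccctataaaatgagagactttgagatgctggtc
Cort: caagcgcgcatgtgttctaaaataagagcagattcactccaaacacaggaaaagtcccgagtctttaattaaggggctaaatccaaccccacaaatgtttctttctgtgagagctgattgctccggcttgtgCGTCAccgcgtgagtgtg
Npy: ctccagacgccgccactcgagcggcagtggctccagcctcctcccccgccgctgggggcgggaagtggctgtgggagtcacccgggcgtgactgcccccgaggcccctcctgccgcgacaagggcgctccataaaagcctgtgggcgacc
Sst held the palindrome, from 48 to 41 bases before its start, which 1.36% of the 32851 promoter windows of that length held. Tac1, Vip and Cort held TGACG once each, from 43, 79 and 18 bases before the start, and Npy did not hold it. Of the 23 members with a promoter in the table, 8 held TGACG in any window, and 13.3% of all windows did. The first is a count of genes and the second a share of windows, so they are not like measures. A match of letters is a description and not a binding site. Penk had no entry.

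No peptide gene passed the threshold, and their differences had both signs. Tac1 encodes the precursor of substance P and neurokinin A. Its gene values on wild type arrays 1 to 4 were 9.70, 9.66, 9.52 and 9.71 log2, and on Nova2 KO arrays 1 to 4 they were 10.02, 9.86, 10.58 and 10.18 log2. All Nova2 KO arrays lay above all wild type arrays, with Nova2 KO 3 the highest. The difference was 0.51 log2 or 1.43-fold (SE 0.14, 95% interval 0.21 to 0.82), with a limma adjusted p of 0.236. Without Nova2 KO 3 it was 0.37 log2, and with probe sets averaged by the mean it was 0.36 log2. Of the 8 Tac1 probe sets, 7 were higher and their differences ran from -0.17 to 0.59 log2.

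Penk encodes proenkephalin, the precursor of the enkephalins. It lay at 11.23, 11.22, 11.25 and 11.22 log2 in wild type and at 10.71, 10.44, 11.06 and 10.84 log2 in Nova2 KO. Every Nova2 KO array was below every wild type array, and the spread was larger in Nova2 KO (SD 0.26) than in wild type (SD 0.016). The wild type mean was 1.38-fold above the Nova2 KO mean, a difference of -0.47 log2 (SE 0.12, 95% interval -0.73 to -0.20, limma adjusted p = 0.223). All 5 Penk probe sets were lower, by -0.50 to -0.23 log2, and with probe sets averaged by the mean Penk was at -0.35 log2. Array Nova2 KO 3, the highest of its group for Tac1, was also the highest of its group for Penk.

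Npy encodes neuropeptide Y. Its wild type values were 10.21, 10.20, 10.22 and 10.65 log2 and its Nova2 KO values 10.57, 10.45, 10.73 and 10.72 log2. The groups overlapped through wild type 4, which lay among the Nova2 KO arrays. The difference was 0.30 log2 (SE 0.12, limma adjusted p = 0.38). It became 0.26 log2 without wild type 2, 0.41 log2 without wild type 4 and 0.46 log2 with no filter. The 5 probe sets of Npy were all higher, by 0.019 to 0.65 log2.

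Sst encodes somatostatin, the peptide of a large interneuron class. It was at 11.30, 11.09, 11.22 and 11.53 log2 in wild type and at 11.43, 11.29, 11.72 and 11.55 log2 in Nova2 KO. The groups overlapped, and the difference was 0.21 log2 (SE 0.12, 95% interval -0.056 to 0.48). Sst was at 0.14 log2 without Nova2 KO 3 and at 0.11 log2 with probe sets averaged by the mean. Cort encodes cortistatin, a peptide related to somatostatin, and its probe sets disagreed. Probe set 5449198 was at 7.85, 7.81, 7.74 and 8.07 log2 in wild type and at 8.34, 8.09, 8.68 and 8.36 log2 in Nova2 KO, a difference of 0.50 log2 (SE 0.15, limma adjusted p = 0.666 over all probe sets). All Nova2 KO arrays were above all wild type arrays on it, as on 3.05% of all kept probe sets. Probe set 4837958 differed by 0.10 log2 (SE 0.14), and the groups overlapped. With no filter, where the gene value of Cort over its 3 probe sets is that of 5449198 on all arrays, Cort was at 0.50 log2 (limma adjusted p = 0.234).

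Vip, the peptide of a class that inhibits other interneurons, ranged from 7.44 to 7.59 log2 in wild type and from 7.23 to 7.62 log2 in Nova2 KO. Its difference was -0.081 log2 (SE 0.10, 95% interval -0.31 to 0.14), and 8 of its 12 probe sets were lower. With 1 array left out, Vip ran from -0.14 log2 (without Nova2 KO 3) to -0.014 log2 (without Nova2 KO 4). Among the 5 tested peptide genes, differences thus ran from -0.47 log2 (Penk) to 0.51 log2 (Tac1).

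**Figure D2:**
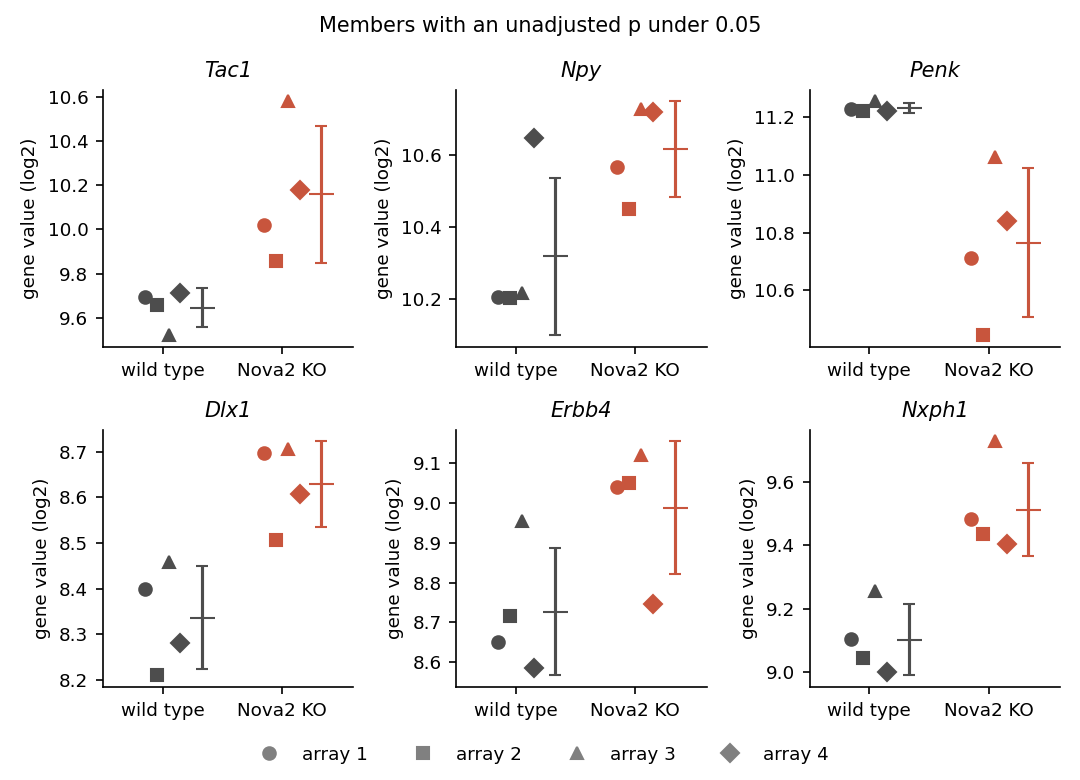
Gene values in log2 units of the 6 members with an unadjusted limma p under 0.05, each symbol an array of the wild type (dark grey) or Nova2 KO (red) group and the bar the mean with its SD (n = 4). The groups do not overlap for Tac1, Penk, Dlx1 and Nxph1, while wild type 4 lies among the Nova2 KO arrays for Npy and Nova2 KO 4 among the wild type arrays for Erbb4.

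No gene that makes or loads GABA passed the threshold, and their differences ran from -0.20 to 0.057 log2. Gad1 and Gad2 encode the enzymes that make GABA from glutamate. Gad1 was at 10.29, 10.32, 10.28 and 10.14 log2 in wild type and at 10.39, 10.40, 10.18 and 10.11 log2 in Nova2 KO. Its difference of 0.010 log2 (SE 0.10) had a 95% interval of -0.21 to 0.23, and 15 of its 25 probe sets were higher. Gad2 was at 9.98, 10.03, 10.19 and 9.81 log2 in wild type and at 9.86, 9.76, 9.86 and 9.74 log2 in Nova2 KO. The groups overlapped only through wild type 4, and 20 of 23 probe sets were lower. The Gad2 difference was -0.20 log2 (SE 0.10, 95% interval -0.42 to 0.028, limma adjusted p = 0.485). Slc32a1 encodes the transporter that fills vesicles with GABA. Its values spread more, from 9.31 to 9.80 log2 in wild type and from 9.42 to 10.13 log2 in Nova2 KO, and the difference was 0.057 log2 (SE 0.16, 95% interval -0.28 to 0.40).

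All 8 tested transcription factors had a higher mean in Nova2 KO, by 0.0083 to 0.29 log2, and none passed. Dlx1 was at 8.40, 8.21, 8.46 and 8.28 log2 in wild type and at 8.70, 8.51, 8.71 and 8.61 log2 in Nova2 KO. The groups did not overlap. The difference was 0.29 log2 or 1.23-fold (SE 0.099, 95% interval 0.079 to 0.51, limma adjusted p = 0.284), and all 9 probe sets were higher. With the filter at the 50th percentile Dlx1 was at 0.15 log2. The other Dlx genes had overlapping groups: Dlx2 differed by 0.22 log2 (SE 0.12), Dlx5 by 0.25 log2 (SE 0.16) and Dlx6 by 0.18 log2 (SE 0.14). Dlx2 was even across wild type arrays (7.42 to 7.49 log2), while Nova2 KO 2 (7.30 log2) was below them and the other Nova2 KO arrays (7.70 to 7.86 log2) above. With the filter at the 50th percentile Dlx6 was at -0.011 log2. With 1 array left out, Dlx2 ran from 0.16 log2 (without Nova2 KO 3) to 0.34 log2 (without Nova2 KO 2). Over the same settings Dlx5 ran from 0.14 log2 (without Nova2 KO 3) to 0.35 log2. Dlx6 ran from 0.065 log2 to 0.27 log2 (without Nova2 KO 4).

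Lhx6, the factor of interneurons from the medial ganglionic eminence, differed by 0.0083 log2 (SE 0.11, 95% interval -0.22 to 0.24), with 6 of 12 probe sets higher. Sox6, which acts after Lhx6, differed by 0.17 log2 (SE 0.099), with 27 of 37 probe sets higher. The chromatin organiser Satb1 differed by 0.073 log2 (SE 0.12) and was at -0.0028 log2 where probe sets were averaged by the mean. Nr2f2, also called COUP-TFII, differed by 0.051 log2 (SE 0.14) and was at -0.050 log2 without a filter. For these 4 genes the groups overlapped.

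The calcium binding protein gene Calb2, which encodes calretinin, ranged from 8.89 to 9.26 log2 in wild type and from 8.92 to 9.46 log2 in Nova2 KO, a difference of 0.11 log2 (SE 0.13). With 1 array left out, Calb2 ran from 0.0031 log2 (without Nova2 KO 3) to 0.18 log2 (without Nova2 KO 1). Nos1 encodes neuronal nitric oxide synthase, which marks long-range projecting interneurons and neurogliaform cells. It was at 7.93, 8.05, 8.05 and 7.98 log2 in wild type and at 7.84, 7.93, 7.95 and 7.73 log2 in Nova2 KO, so that the groups overlapped narrowly. The Nos1 difference was -0.14 log2 (SE 0.094), with 27 of 36 probe sets lower. Adarb2, an RNA-editing enzyme homologue without known editing activity, differed by 0.055 log2 (SE 0.14), with 25 of 30 probe sets higher.

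Among receptors and secreted ligands, Nxph1 had the lowest p of all members. It encodes neurexophilin-1, a secreted ligand of alpha-neurexins. Its values were 9.10, 9.05, 9.26 and 9.00 log2 in wild type and 9.48, 9.43, 9.73 and 9.40 log2 in Nova2 KO. All Nova2 KO arrays lay above all wild type arrays. The difference was 0.41 log2 or 1.33-fold (SE 0.11, 95% interval 0.18 to 0.64, limma adjusted p = 0.205). Of 17 probe sets 14 were higher, from -0.16 to 0.50 log2, and Nxph1 was at 0.26 log2 without a filter and at 0.21 log2 with probe sets averaged by the mean.

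Groups that did not overlap were found for 3 members with higher Nova2 KO values (Tac1, Dlx1 and Nxph1), as for 5.06% of all genes. In the other direction Penk alone had such groups, as 2.5% of all genes did.

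Erbb4 encodes the receptor for neuregulins on interneurons. Its gene value was 8.65, 8.72, 8.95 and 8.59 log2 in wild type and 9.04, 9.05, 9.12 and 8.75 log2 in Nova2 KO. The groups overlapped, since Nova2 KO 4 lay below wild type 3, and the difference was 0.26 log2 (SE 0.12, limma adjusted p = 0.415). Of its 31 probe sets 30 were higher, where 51.1% of all kept probe sets were. On 8 of the Erbb4 probe sets all Nova2 KO arrays lay above all wild type arrays, against 3.05% of all. Probe sets of the same gene are read on the same arrays and are not independent. The shares over all probe sets are therefore no expectation for a single gene, and nothing is concluded from the comparison. Cnr1, the cannabinoid receptor of Cck interneurons and other neurons, differed by 0.25 log2 (SE 0.16), with overlapping groups, and was at -0.011 log2 with the filter at the 50th percentile. Kit, a receptor tyrosine kinase, differed by -0.10 log2 (SE 0.12), with 22 of 23 probe sets lower. Kit was at -0.0073 log2 without Nova2 KO 4 and at -0.015 log2 with no filter.

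**Figure D3:**
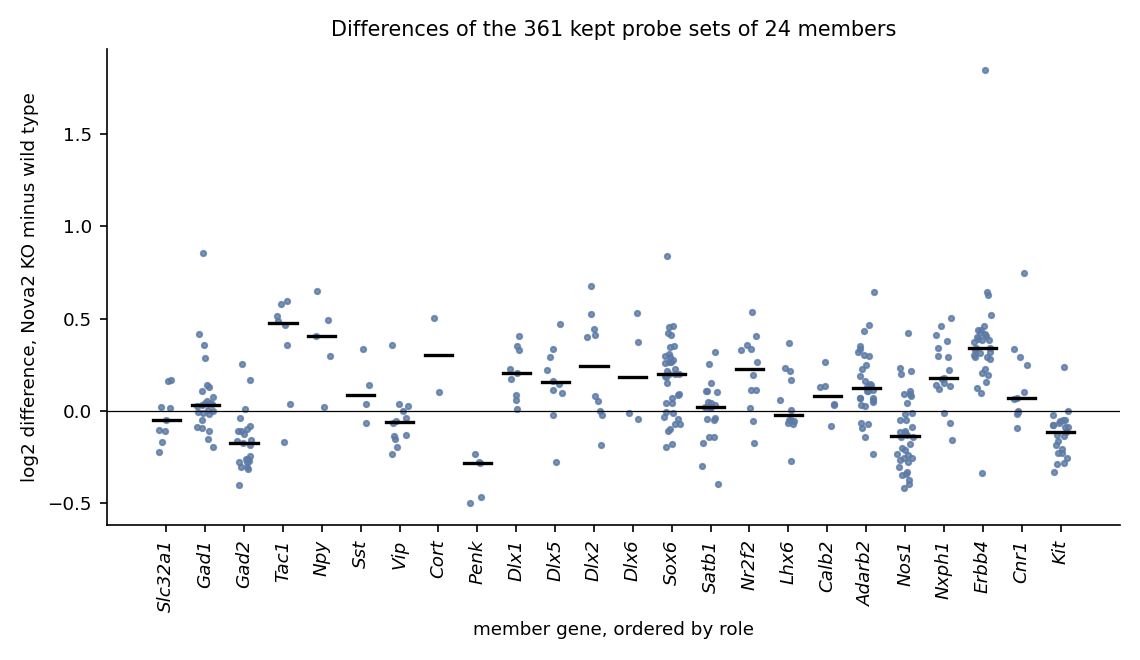
Difference in log2 units between Nova2 KO and wild type for each of the 361 kept probe sets of the 24 members (points), with the median of a gene as a bar. Probe sets of Penk lie below 0 and 30 of 31 Erbb4 probe sets above 0, where 1 Erbb4 probe set stands apart at 1.84.

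Single probe sets of the members were then tested, since Nova2 acts on splicing. Of the 361 kept member probe sets, none passed the threshold over 293697 kept probe sets (limma), where 20 or 0.00681% passed. At an unadjusted p under 0.05, 54 member probe sets were found (15.0%, against 6.68% of all). Of the 54, 13 were from Erbb4 and 5 each from Tac1 and Nxph1, and probe sets of 1 gene are not independent. Of all kept probe sets, 198965 named 1 gene, so the shares are over unlike sets. The member probe set with the lowest p was Erbb4 probe set 5258686. Its signal was 6.02, 6.81, 6.63 and 6.79 log2 in wild type and 8.41, 8.68, 8.44 and 8.08 log2 in Nova2 KO. Every Nova2 KO array lay above every wild type array, by more than the whole spread of either group. The difference was 1.84 log2 or 3.59-fold (SE 0.21, 95% interval 1.38 to 2.31, limma adjusted p = 0.0618).

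The other 30 Erbb4 probe sets differed by -0.34 to 0.64 log2, with a median of 0.34 log2. In wild type, 5258686 was the dimmest Erbb4 probe set of the 31. Its call depended on the processing: in 15 other settings the limma adjusted p ran from 0.0153 to 0.295 and was under 0.05 in 4. These were the filter at the 50th percentile (0.0153), the array median as a covariate (0.019, chosen after the data were seen), median centring (0.026) and quantile normalization (0.0297). At the 50th percentile the filter value was 7.21 log2, above the wild type mean of 6.56 log2, so there the probe set was kept through its Nova2 KO signal (mean 8.40 log2) and that call is no support. Which exon of Erbb4 this probe set reads was not analysed here.

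**Figure D4:**
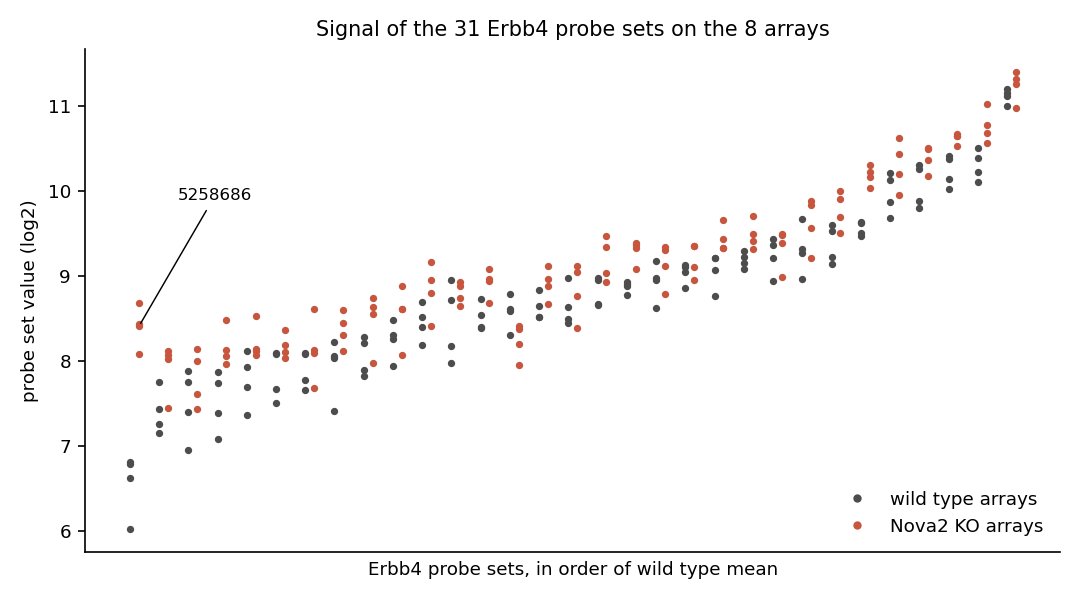
Signal in log2 units of the 31 Erbb4 probe sets on the 4 wild type (dark grey) and 4 Nova2 KO (red) arrays, in order of the wild type mean. On probe set 5258686, at the far left, wild type arrays lie between 6.02 and 6.81 and Nova2 KO arrays between 8.08 and 8.68, while 29 of the other 30 have a higher Nova2 KO mean by 0.64 at most.

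Exon usage was read as a splicing index, which subtracts the gene value from each probe set on the same array in log2 units, for the 21 members with 5 or more kept probe sets. None of their 351 probe sets passed over 195014 tested (limma), where 26 or 0.0133% passed, and 31 had an unadjusted p under 0.05 (8.83%, against 6.76% of all). For Erbb4 probe set 5258686 the index was -2.63, -1.91, -2.32 and -1.80 in wild type and -0.63, -0.37, -0.68 and -0.66 in Nova2 KO. It was thus 1.58 log2 or 2.99-fold higher relative to the gene (SE 0.18, 95% interval 1.16 to 2.00, limma adjusted p = 0.0857). In 16 other settings the adjusted p of the index ran from 0.0318 to 0.35, and it was under 0.05 in 2: the mean over probe sets (0.0318) and the filter at the 50th percentile (0.0406), where it was again kept through its Nova2 KO signal.

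In the next 5 members by lowest index p, the adjusted p ran from 0.301 to 0.644. A probe set of Nxph1, 5500574, had an index of 1.47, 1.35, 1.20 and 1.39 in wild type and of 0.85, 0.81, 0.66 and 0.80 in Nova2 KO, a difference of -0.57 log2 (SE 0.093). Its own signal differed by -0.16 log2 (SE 0.11), from 10.45 to 10.29 log2, with groups that did not overlap, and the Nxph1 gene value had a higher Nova2 KO mean over the same arrays. The index of Tac1 probe set 5045467 differed by -0.68 log2 (SE 0.15), and its own signal by -0.17 log2 (SE 0.16). A Dlx5 probe set, 5197972, differed by -0.53 log2 in index (SE 0.13) and by -0.28 log2 in signal (SE 0.25). Probe set 4473807 of Adarb2 was higher by 0.59 log2 in index (SE 0.10), but its wild type signal of 5.63 log2 was under the filter value, so that it was kept through its Nova2 KO signal of 6.28 log2. The Dlx2 probe set 4966005 was higher by 0.46 log2 in index (SE 0.14) and by 0.68 log2 in signal (SE 0.20).

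Along chromosome 6 of the mouse gene table, Dlx6, Dlx5, Tac1 and Nxph1 follow each other, with 1 protein-coding gene between Dlx5 and Tac1 and 8 between Tac1 and Nxph1. This stretch was chosen after the values were seen. Of the 5 measured genes between the members, 4 had a higher mean in Nova2 KO, against 55.4% of all genes. None of the 5 had an unadjusted limma p under 0.05. Those with the larger differences were Glcci1 (0.22 log2, SE 0.12) and C1galt1 (0.20 log2, SE 0.11), and Asns, which follows Tac1, differed by 0.088 log2 (SE 0.12). Sdhaf3, between Dlx5 and Tac1, differed by -0.11 log2 (SE 0.18). Ica1, next to Nxph1, differed by 0.093 log2 (SE 0.087). Its Nova2 KO arrays all lay above its wild type arrays, as for 5.06% of all genes.

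Other genes of GABA neurons were measured from a separate list. Of 30 listed genes 23 were tested and none passed, with 14 higher, 9 lower and a median of 0.041 log2. The genes with the lowest p were Mef2c, an activity-regulated transcription factor (0.37 log2, SE 0.11, limma adjusted p = 0.263), Sp9, a factor of ganglionic eminence cells (-0.50 log2, SE 0.17), and Crhbp, the binding protein of corticotropin-releasing hormone (0.26 log2, SE 0.097). Sp9 was at 0.11 log2 with the filter at the 50th percentile. Cck, whose peptide marks a further interneuron class, differed by -0.088 log2 (SE 0.10), and Reln, made by layer 1 and other interneurons, by 0.097 log2 (SE 0.11).

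Receptors and ligands that act with the members were measured from a further list. Of 28 listed genes 18 were tested and none passed, with 13 lower and a median of -0.052 log2. The other 5 were higher (27.8%, against 55.4% of all genes). Only Kitl had an unadjusted limma p under 0.05, and it was higher. Kitl, the ligand of Kit, differed by 0.32 log2 (SE 0.11, limma adjusted p = 0.296), while Kit itself differed by -0.10 log2. The somatostatin receptor gene Sstr4 differed by -0.29 log2 (SE 0.14), and Sstr1 (-0.15 log2, SE 0.11) and Sstr2 (-0.14 log2, SE 0.12) were also lower in mean. Adcyap1r1, the receptor of the Vip-related peptide PACAP, differed by -0.16 log2 (SE 0.092). The neuregulin genes Nrg1 (0.092 log2, SE 0.11) and Nrg2 (-0.051 log2, SE 0.12), whose products bind Erbb4, differed by less than their standard errors.

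Markers of other cells and regions were set beside these values. For 9 measured striatal markers the median difference was -0.017 log2, with 4 higher and 5 lower. Their mean level ran from 9.23 to 9.29 log2 in wild type and from 9.12 to 9.40 log2 in Nova2 KO. Drd2 differed by -0.27 log2 (SE 0.14), Rarb by -0.25 log2 (SE 0.13), Ebf1 by 0.16 log2 (SE 0.13) and Ppp1r1b by 0.12 log2 (SE 0.15), and none of the 9 had an unadjusted limma p under 0.05. Tac1 and Penk are both abundant in striatum. Among 9 cortical excitatory markers 6 were higher, with a median of 0.023 log2, and the lowest p belonged to Fezf2 (0.29 log2, SE 0.10), Neurod6 (0.29 log2, SE 0.13) and Slc17a7 (-0.19 log2, SE 0.11).

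The list of olfactory bulb and neuroblast markers had a mean level of 7.91 to 8.15 log2 in wild type and 8.15 to 8.31 log2 in Nova2 KO, with 6 of 8 genes higher. Dcx, a microtubule-binding protein of immature neurons, rose by 0.81 log2 (SE 0.11, limma adjusted p = 0.0133), a call lost in 4 of 17 other settings. Th was at 0.59 log2 (SE 0.12, limma adjusted p = 0.0906) and passed in 4 of 17 other settings, and Sox11 at 0.19 log2 (SE 0.13). Of the other genes of this list, Etv1 was higher in mean by 0.13 log2 (SE 0.096). Tshz1 (0.118 log2, SE 0.122), Eomes (-0.072 log2, SE 0.11), Cdhr1 (-0.034 log2, SE 0.13) and Doc2g (0.049 log2, SE 0.10) differed by less than their standard errors. All 9 measured oligodendrocyte markers were lower, with mean levels of 9.23 to 9.40 log2 in wild type and 8.81 to 9.05 log2 in Nova2 KO. The myelin protein gene Mog fell by 0.77 log2 (SE 0.13, limma adjusted p = 0.0301) and lost its call in 11 of 17 other settings. Mag (-0.64 log2, SE 0.14) and Mobp (-0.58 log2, SE 0.16) did not pass. Olig1 (-0.11 log2, SE 0.12), Pdgfra (-0.10 log2, SE 0.10) and Olig2 (-0.0075 log2, SE 0.14) differed by about their standard errors or less. The part of these marker differences in the member values was not tested.

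No gene of the remaining lists passed. Of 5 measured thalamic and hypothalamic markers Oxt was at -0.48 log2 (SE 0.13, limma adjusted p = 0.236), Prkcd at 0.27 log2 (SE 0.088) and Trh at -0.17 log2 (SE 0.15), with a median of -0.12 log2. The groups of Oxt and of Prkcd did not overlap. Of 6 astrocyte markers 4 were lower (median -0.027 log2), with Aldh1l1 at -0.24 log2 (SE 0.14), Gfap at 0.25 log2 (SE 0.15) and Aqp4 at -0.16 log2 (SE 0.12). Of 7 microglial and vessel markers 6 were lower (median -0.021 log2), with Kdr at -0.22 log2 (SE 0.099), Csf1r at -0.23 log2 (SE 0.11) and Pdgfrb at -0.23 log2 (SE 0.11). Cx3cr1 (-0.021 log2, SE 0.11), Cldn5 (-0.021 log2, SE 0.15) and Pecam1 (-0.010 log2, SE 0.098) differed by less than their standard errors. The microglial marker Aif1 was higher in mean, by 0.26 log2 (SE 0.19).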

How the data were processed

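The deposited table held 1 log2 value per array for each of 391597 probe sets, made by the authors with PLIER, per the submitters' processing notes (version not given). Background correction, normalization between arrays and the genome build are not given in the sources used here, and the values were left as deposited. Gene names came from the platform annotation, in which 228454 probe sets named 1 gene, 3443 several and 159700 none, and were updated with the RefSeq gene table. Probe sets with a mean above the 25th percentile (5.86 log2) were kept, 293697 in all. Gene values needed 3 kept probe sets and exon usage 5. Each measure was fitted over the whole table with lmFit and eBayes of limma 3.58.1 (R 4.3.3), as Nova2 KO minus wild type; the tests were two-sided, adjusted by Benjamini and Hochberg and read at 0.05. The scripts were tested on simulated data. Precision is limited by the 4 arrays per group. Nothing in the labels says that samples came from separate mice, so p-values measure the spread between these samples, which may be technical.

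The members and lists were chosen with earlier results of these data known. Named were all members, the Nova genes and the leading index probe set of the 6 members with the lowest p. The 3 genes with the lowest p of each other list were also named. Further genes were named after their values were seen. These were Cck, Reln, Sstr1, Sstr2, Nrg1, Nrg2, Ppp1r1b, Eomes, Cdhr1, Doc2g, Olig1, Olig2, Pdgfra, Glcci1, C1galt1 and Asns. Etv1, Tshz1, Aif1, Cx3cr1, Cldn5, Pecam1, Sdhaf3 and Ica1 were also named after their values were seen. The other settings tried numbered 17, of which 2 were added after the data were seen: both arrays numbered 4 left out, and the array median as a covariate.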

Additional observations from a re-analysis of the deposited data

Results flagged for a closer look

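In groups of 4 arrays, the gap between the extreme array and its nearest neighbour was compared with the range of the group, and chance marks about 1 in 20 groups. Of 116 groups checked, 4 had an array that stood apart. Wild type 4 was at 10.65 log2 for Npy, against 10.20 to 10.22 log2 on the other wild type arrays. Wild type 2 was at 9.31 log2 for Slc32a1, against 9.72 to 9.80 log2. Wild type 3 was at 10.55 log2 for the astrocyte marker Aqp4, against 10.30 to 10.34 log2. Nova2 KO 2 had an index of -0.37 log2 for Erbb4 probe set 5258686, against -0.68 to -0.63 log2 on the other Nova2 KO arrays.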

How the results depend on the processing

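No member gene passed in any of the 17 other settings (limma), and between 14 and 18 of the members had a higher mean in each. The lowest adjusted p was 0.0596 for Nxph1, 0.0757 for Penk and 0.0987 for Tac1, each with the replicate block, and the highest was 0.476, 0.488 and 0.488. Over all genes, 13 passed with median centring, 80 with the replicate number as a block, 11 without both arrays numbered 4, 54 with the array median as a covariate and 6 to 16 with 1 array left out. For exon usage, 15 probe sets passed without a filter, 43 with probe sets averaged by the mean, 4 with the replicate block, 2 without both arrays numbered 4 and 10 to 16 with 1 array left out. Of the members, 1 probe set (Erbb4 5258686) passed in exon usage with the 50th percentile filter and with averaging by the mean. For single probe sets, 6 passed without a filter, 88 with the 50th percentile filter, 85 with median centring, 86 with quantile normalization, 7 with the replicate block, 2 without both arrays numbered 4, 184 with the covariate and 0 to 9 with 1 array left out. The same Erbb4 probe set, 1 of the member probe sets, passed with the 50th percentile filter, median centring, quantile normalization and the covariate. Under the 50th percentile filter it was kept through its Nova2 KO signal, so those calls are no support.

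Deviations from the group mean correlated between same-numbered arrays by 0.14, 0.33, 0.024 and 0.57. Wild type arrays 1, 2 and 4 correlated best with the Nova2 KO array of their own number and wild type 3 with Nova2 KO 2. Since not every correlation was over 0.1, the numbers were not taken to pair the samples. With the replicate block, the limma adjusted p of Erbb4 5258686 was 0.142 for its signal and 0.268 for its index, and no member call changed. Several differences changed sign, among them Sp9, which was at -0.50 log2 with the filter used throughout. Without a filter Nr2f2 was at -0.050 log2. With the 50th percentile filter Gad1 was at -0.014, Slc32a1 at -0.023, Dlx6 at -0.011, Cnr1 at -0.011, Sp9 at 0.11 and Ebf1 at -0.00019 log2. With averaging by the mean Slc32a1 was at -0.031, Satb1 at -0.0028 and Trh at 0.055 log2, and with quantile normalization Gad1 was at -0.015 log2. Without both arrays numbered 4, Adarb2 was at -0.033 and Nova2 at 0.053 log2. With 1 array left out, Gad1 ran from -0.034 to 0.064, Slc32a1 from -0.082 to 0.16, Lhx6 from -0.057 to 0.050, Satb1 from -0.012 to 0.14, Nr2f2 from -0.014 to 0.17, Adarb2 from -0.077 to 0.12 and Nova2 from -0.10 to 0.026 log2. Another filter lets other probe sets enter. The cause of the other changes was not tested.

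Th passed with the 50th percentile filter (limma adjusted p = 0.0239), the covariate (0.0252), the replicate block (0.0377) and averaging by the mean (0.0425). Dcx lost its call with averaging by the mean (limma adjusted p = 0.094) and without wild type 1 (0.0785), Nova2 KO 1 (0.0557) or Nova2 KO 3 (0.0747). Median centring moved the median of all genes from 0.022 to 0.026 log2, and quantile normalization moved it to 0.017 log2.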
